A study of Homo sapiens with 6 samples.

Results

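Tubulin isotypes are the products of a family of closely related genes, and 10 of these genes were followed here. The cells were AGS, an established human line from a gastric adenocarcinoma. They were the alpha-tubulin genes TUBA1A, TUBA1B, TUBA1C and TUBA4A, the beta-tubulin genes TUBB, TUBB2A, TUBB2B, TUBB3 and TUBB6, and the gamma-tubulin gene TUBG1. A probe belonged to a gene when the RefSeq accession given for it on the array mapped to that gene. This gave 16 probes for 9 of the 10 genes, among 22439 genes with a probe. TUBB6 matched no probe and was not analysed here. Gene expression had been profiled 48 h after transfection with a nontargeting siRNA (si-Control) or with an siRNA against C1GALT1 (si-C1GALT1-3), to ask which transcripts change when this enzyme is depleted. Each group had 3 samples of total RNA, each on its own one-colour Agilent array, and all 6 came from the same unmodified cell line grown in serum-containing medium. The comparison rests on 1 siRNA sequence and 1 cell line. The sources used here do not say whether samples of a group came from separate cultures, so p-values measure only the spread between these samples, which may be technical.

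Alpha- and beta-tubulin pair into dimers that polymerise into microtubules, the tracks for intracellular transport and the fibres of the mitotic spindle. Gamma-tubulin sits in a ring complex from which microtubules grow. Cells adjust the amount of tubulin partly through the stability of the tubulin transcripts themselves: when free dimers are in excess, the nascent chain is recognised on the ribosome and the transcript is degraded. The isotypes differ mainly in their C-terminal tails, which carry most of the modifications of tubulin. TUBB3, the class III beta-tubulin, is best known from neurons and is also found in carcinoma cells.

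The 3 alpha-tubulin genes TUBA1A, TUBA1B and TUBA1C had the lowest log2 fold changes of the family when each gene was read from its brightest probe. On these probes the highest si-C1GALT1-3 array stayed under the lowest si-Control array. These genes stand next to each other among the protein-coding genes of chromosome 12, in the order TUBA1B, TUBA1A, TUBA1C. TUBA1B stopped just short of 2-fold, and the other 2 were lower by 1.79-fold each. TUBB3 had the same mean in both groups to within 0.01 on the log2 scale, and TUBG1 was the 1 gene with a higher mean after si-C1GALT1-3 on its brightest probe, TUBB2B aside, which was mostly at background. No tubulin gene reached the level at which a probe was called changed, which was p under 0.01 in limma's moderated test together with a change of at least 2-fold.

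The bases before the starts of the 3 neighbouring alpha-tubulin genes are shown because these genes had the lowest log2 fold changes, and those of TUBB3 and TUBG1 for contrast with the isotypes that did not. Each sequence is the stretch of 250 bases upstream of a RefSeq start (GRCh38.p14, 5′ to 3′ on the strand of the gene). For TUBA1C, the window of the farthest downstream of 3 annotated starts is given, and for TUBB3 that of the downstream of 2. Capitals mark CCAAT and GGGCGG, the letters of the CCAAT box and of the GC box, TTTGAA, the letters of the element known as CHR in promoters of cell cycle genes, each on either strand, and TATA within the last 50 bases.
TUBA1A (chr12:49189081-49189330, strand -): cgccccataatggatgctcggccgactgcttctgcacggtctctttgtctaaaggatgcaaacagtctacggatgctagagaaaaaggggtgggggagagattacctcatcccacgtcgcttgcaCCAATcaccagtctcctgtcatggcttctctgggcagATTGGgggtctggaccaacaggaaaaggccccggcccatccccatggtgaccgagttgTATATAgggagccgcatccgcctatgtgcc
TUBA1B (chr12:49131396-49131645, strand -): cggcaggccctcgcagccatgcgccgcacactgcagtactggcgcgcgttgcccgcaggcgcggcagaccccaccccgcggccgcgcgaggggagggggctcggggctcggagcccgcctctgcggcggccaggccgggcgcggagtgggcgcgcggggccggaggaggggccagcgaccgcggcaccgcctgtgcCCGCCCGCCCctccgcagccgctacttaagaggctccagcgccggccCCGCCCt
TUBA1C (chr12:49264832-49265081, strand +): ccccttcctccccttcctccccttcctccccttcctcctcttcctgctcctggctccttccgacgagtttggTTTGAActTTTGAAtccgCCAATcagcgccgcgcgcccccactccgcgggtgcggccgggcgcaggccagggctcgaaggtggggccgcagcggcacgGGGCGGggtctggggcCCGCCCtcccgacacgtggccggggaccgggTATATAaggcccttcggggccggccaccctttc
TUBB3 (chr16:89923092-89923341, strand +): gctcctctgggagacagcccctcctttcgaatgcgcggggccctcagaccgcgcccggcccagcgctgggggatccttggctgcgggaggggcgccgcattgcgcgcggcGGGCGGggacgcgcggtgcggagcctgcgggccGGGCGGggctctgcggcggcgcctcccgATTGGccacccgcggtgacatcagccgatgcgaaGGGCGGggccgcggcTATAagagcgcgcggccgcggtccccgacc
TUBG1 (chr17:42609433-42609682, strand +): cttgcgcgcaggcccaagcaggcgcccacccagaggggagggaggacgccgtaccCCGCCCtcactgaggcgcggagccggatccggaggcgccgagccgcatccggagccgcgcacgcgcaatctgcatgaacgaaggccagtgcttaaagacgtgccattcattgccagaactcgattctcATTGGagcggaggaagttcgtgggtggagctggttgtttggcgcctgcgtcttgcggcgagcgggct

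The combination of marked letters differed between the 3 neighbouring genes, though TUBA1C shared some letters with each of the others. TUBA1A held CCAAT at 2 places and TATA from 30 bases before the start, where its overlapping copies form TATATA. TUBA1B held neither and carried GGGCGG at 3 places, of which 2 overlap in part, in a window of 81.2% G and C. TUBA1C held TTTGAA at 2 places, CCAAT at 1, GGGCGG at 2 and TATATA. Over the 15 windows of the 10 genes, CCAAT was found in 9, GGGCGG in 10, TATA in 5 and TTTGAA in 2, both of the latter at starts of TUBA1C. Windows of 1 gene can overlap, and the CCAAT of the 2 upstream windows of TUBA1C is a single place counted in both. Over all 35116 RefSeq windows the shares with these letters were 32.0%, 42.6%, 8.4% and 13.3%. These matches describe letters only, and no binding was measured in this study.

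Facts of the arrays that bear on these values are few. Between 66.2% and 72.7% of the gene spots of an array were well above background, and no gene spot was saturated. Precision is limited by the number of arrays. The array of si-Control replicate 2 had a region of low signal that held 15.9% of its gene spots, and the spots in it were set to missing. Samples with the same replicate number shared a slide, on which si-Control always had the same position and si-C1GALT1-3 another, so position and treatment cannot be told apart. C1GALT1, the galactosyltransferase that extends mucin-type O-glycans and the target of the siRNA, had normalized log2 signals of 12.22, 13.03 and 12.62 in si-Control replicates 1, 2 and 3, and of 11.76, 11.98 and 11.13 in si-C1GALT1-3. The groups did not overlap, and the log2 fold change was -1.00 ± 0.31 (standard error; limma, adjusted p = 0.265). It did not pass p under 0.01. Of the epithelial markers EPCAM, CDH1, KRT8, KRT18, KRT19 and CLDN4, all 6 were well above background on every array. Of the 4 fibroblast markers, COL1A1 was so on every array that measured it, DCN on 1 array, and COL1A2 and LUM on none. PTPRC, a leukocyte marker, had a probe with log2 signals between 13.56 and 14.34. The log2 of the summed signal of the endothelial markers PECAM1, VWF and CDH5 was between 9.94 and 10.37 on si-Control replicates 1 and 3 and between 9.14 and 9.64 in si-C1GALT1-3. VWF, whose spot was missing on si-Control replicate 2, made up most of this sum, and PECAM1 and CDH5 had overlapping groups. All samples were of the AGS line, and any relation of these marker signals to the tubulin values was not tested.

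Across the array, 2.64% of the 58195 probes tested were called, 1.65% higher and 0.991% lower. Among the 38659 probes above background, meaning well above it throughout at least 1 group, 3.14% were called. Of the tubulin genes, 0 of 9 were called in either direction on the brightest probe, and 0 of the 16 probes were called. The same comparison with the methods' t-test also called 0. After Benjamini-Hochberg adjustment over all probes, limma left 0 tubulin probes under 0.05, against 0.0842% of all probes. TUBB2B had no si-Control array well above background, which left 8 genes with a measured change. Of these 8, 4 had an unadjusted p under 0.05 in limma, against 13.8% of all probes and 17.7% of those above background. By direction they were 4 lower and 0 higher, against 6.43% and 7.36% of all probes. The methods' t-test gave 3 of the 8 such a p.

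All 4 had lower values on the brightest probe, and they were TUBA1A, TUBA1B, TUBA1C and TUBA4A. TUBA4A counts as lower here by that probe alone, since its other 2 probes gave higher means, 1 of them with groups that did not overlap. The same 4 had groups that did not overlap, compared with 21.5% of all probes and 26.2% of those above background. Over the 8 genes, 7 had lower values and the median log2 fold change was -0.46, while the median over all probes was -0.0048. These counts moved with single arrays. Without si-Control replicate 3, which gave the highest value for 5 of the 8 genes, 4 were lower and the median was -0.20. There 3 had a p under 0.05 in limma, 2 of them lower and TUBG1 higher (0.58). Without si-Control replicate 1 the median was -0.81. The number with a p under 0.05 was 1 without si-C1GALT1-3 replicate 1 or replicate 2, and 2 without si-C1GALT1-3 replicate 3. In RNA from a whole culture, fewer cells that carry a transcript and less of it per cell cannot be told apart.

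**Figure D1:**
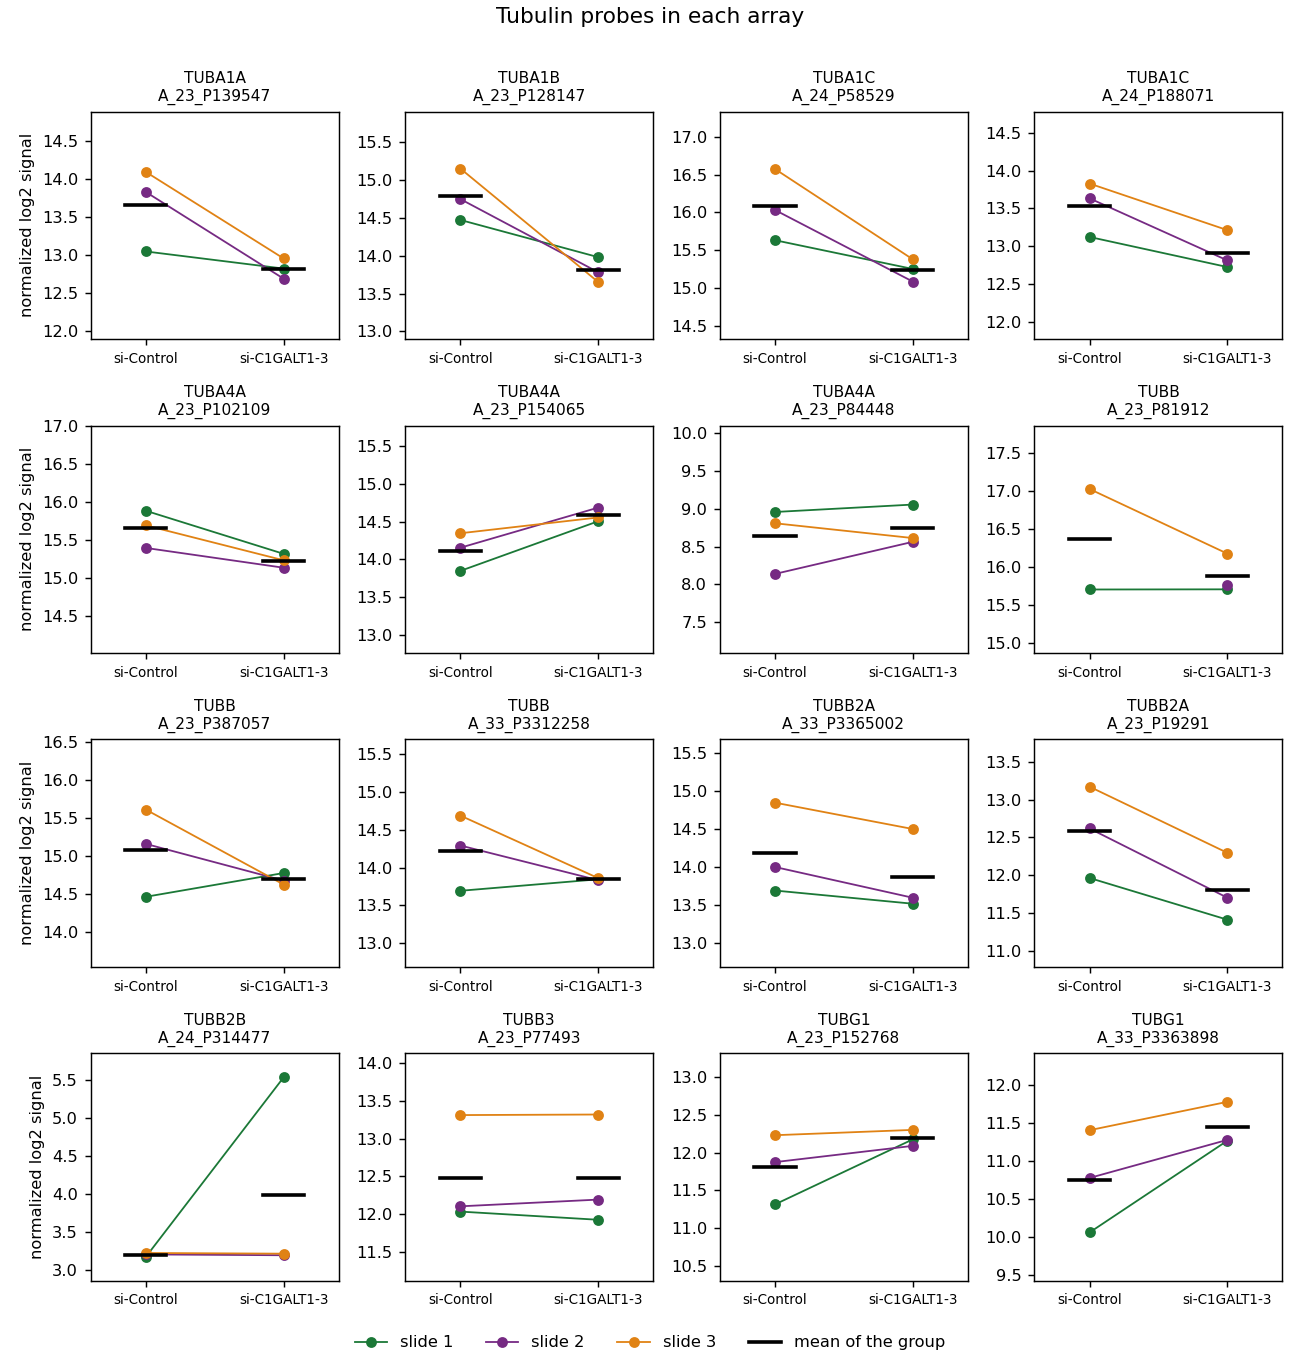
Normalized log2 signal (y axis, each panel spanning 3 log2 units) of the 16 tubulin probes on the si-Control and si-C1GALT1-3 arrays (x axis). Points are single arrays, lines join the arrays of 1 slide, and black bars are group means. The lines of TUBA1A, TUBA1B and TUBA1C descend on all 3 slides, whereas those of TUBB3 stay level, with slide 3 above the others in both groups.

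TUBA1B encodes the most widely expressed alpha-tubulin. Its probe had normalized log2 signals of 14.47, 14.75 and 15.15 in si-Control replicates 1, 2 and 3, and of 13.98, 13.78 and 13.65 in the si-C1GALT1-3 replicates. The lowest si-Control array was thus above the highest si-C1GALT1-3 array. The means were 14.79 ± 0.34 and 13.80 ± 0.17 (SD, n = 3 each), which gave a log2 fold change of -0.98 ± 0.22 (standard error), or 1.98-fold. The value passed p under 0.01 in limma (adjusted p = 0.162), and it was not called because it missed 2-fold. The call changed with the processing. TUBA1B was called when arrays were scaled to their 75th percentile (-1.07), with the low-signal region kept (-1.06), without si-Control replicate 1 (-1.12) and without si-C1GALT1-3 replicate 1 (-1.07). Within slides 1, 2 and 3 the differences were -0.49, -0.97 and -1.50. With the slide as a block the standard error was 0.24 and the adjusted p in limma 0.230, and TUBA1B then no longer passed p under 0.01.

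TUBA1A encodes an alpha-tubulin prominent in developing neurons and present in many dividing cells. Its log2 signals were 13.04, 13.83 and 14.09 in si-Control and 12.82, 12.68 and 12.95 in si-C1GALT1-3. The si-C1GALT1-3 arrays lay close together and below all si-Control arrays, of which replicate 1 came nearest to them. The log2 fold change was -0.84 ± 0.29 (standard error; limma, adjusted p = 0.309). Differences within slides 1, 2 and 3 were -0.23, -1.14 and -1.14, so slide 1 stood apart. Without si-Control replicate 1, TUBA1A was called with -1.13.

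TUBA1C, another alpha-tubulin of this cluster, had a pair of probes. The brighter gave log2 signals of 15.63, 16.03 and 16.57 in si-Control and of 15.26, 15.09 and 15.38 in si-C1GALT1-3. Its groups did not overlap, and its log2 fold change was -0.84 ± 0.26 (standard error; limma, adjusted p = 0.271). The other probe gave 13.12, 13.63 and 13.83 against 12.73, 12.81 and 13.21. Here the highest si-C1GALT1-3 array lay above the lowest si-Control array, and the log2 fold change was -0.61 ± 0.24 (standard error; limma, adjusted p = 0.358). The differences within the slides were all negative on both probes, from -1.19 to -0.38. Without si-Control replicate 1 the brighter probe was called with -1.08. TUBA1A, TUBA1B and TUBA1C are near-identical in sequence, and whether a probe of 1 gene also bound transcripts of another was not tested.

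TUBA4A lies on chromosome 2 and encodes an alpha-tubulin without the terminal tyrosine in its coding sequence. Its 3 probes did not move together. The brightest had log2 signals of 15.89, 15.40 and 15.69 in si-Control and of 15.32, 15.14 and 15.23 in si-C1GALT1-3, all lower. The fitted log2 change was -0.43 ± 0.17 (standard error; limma, adjusted p = 0.356). On a second probe, A_23_P154065, the signals were 13.85, 14.16 and 14.35 against 14.50, 14.68 and 14.55. There every si-C1GALT1-3 array lay above every si-Control array, and the fitted log2 change was 0.46 ± 0.17 (standard error; limma, adjusted p = 0.329). The third, A_23_P84448, had overlapping groups and a log2 fold change of 0.11 ± 0.27. Averaged over the 3 probes, the log2 fold change of TUBA4A was 0.048, so no direction can be given for this gene. All 3 probes carried the same RefSeq accession on the array.

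**Figure D2:**
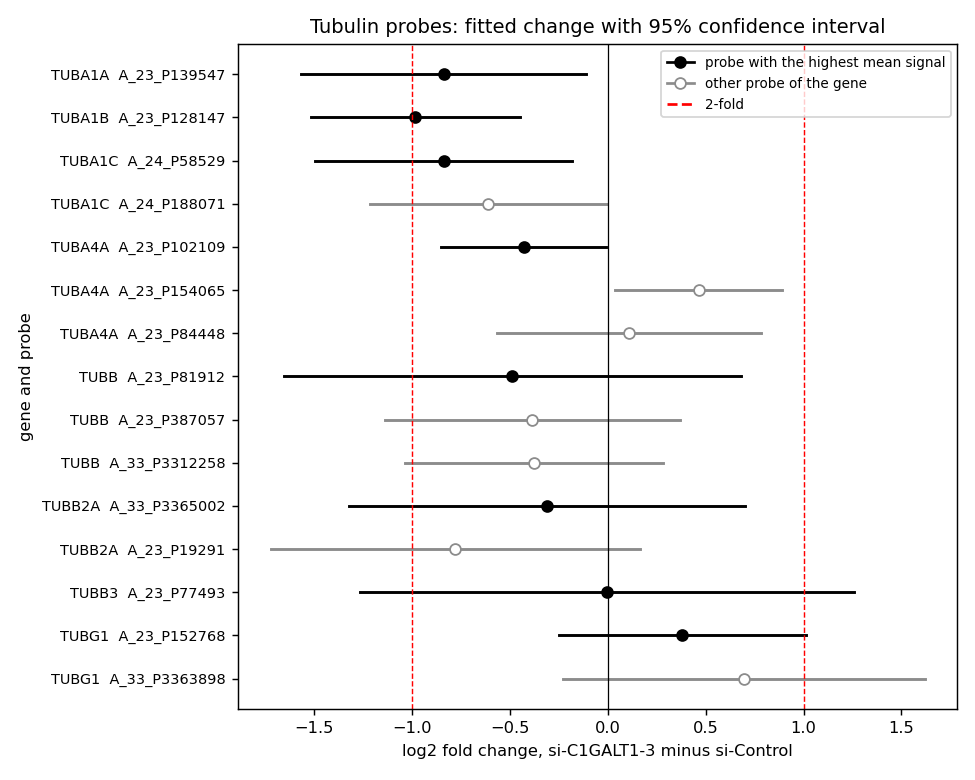
Log2 fold change of si-C1GALT1-3 minus si-Control (x axis) for the 15 tubulin probes above background (y axis), with 95% confidence intervals from limma. Filled points are the brightest probe of each gene, open points its other probes, and dashed lines mark 2-fold. The points of TUBA1A, TUBA1B and TUBA1C lie between -0.98 and -0.61, and those of TUBA4A lie on both sides of 0.

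TUBB encodes the main beta-tubulin of most dividing cells and was read by 3 probes. The brightest lay in the low-signal region of si-Control replicate 2 and was left out there. Its log2 signals were 15.70 and 17.03 in si-Control replicates 1 and 3, and 15.70, 15.75 and 16.17 in si-C1GALT1-3. The 2 si-Control values were further apart than the groups, and the log2 fold change was -0.49 ± 0.45 (standard error; limma, adjusted p = 0.692). It turned to 0.18 without si-Control replicate 3 and to -1.17 without si-Control replicate 1. The probes that were measured on all 6 arrays gave -0.39 ± 0.30 and -0.38 ± 0.27 (standard error). On both of these the si-C1GALT1-3 arrays were close together, from 14.63 to 14.78 and from 13.83 to 13.86, while si-Control ran from 14.46 to 15.61 and from 13.69 to 14.69. Within slide 1 both were higher after si-C1GALT1-3, and within slides 2 and 3 both were lower.

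TUBB2A and TUBB2B are neighbouring beta-tubulin genes on chromosome 6 with near-identical products. The brighter probe of TUBB2A had log2 signals of 13.69, 14.00 and 14.85 in si-Control and of 13.52, 13.60 and 14.50 in si-C1GALT1-3. The groups overlapped, since replicate 3 was the highest in each, and the log2 fold change was -0.31 ± 0.41 (standard error; limma, adjusted p = 0.803). The other probe gave 11.96, 12.62 and 13.17 against 11.41, 11.70 and 12.30, and its fitted log2 change was -0.78 ± 0.38 (standard error; limma, adjusted p = 0.442). Both probes were lower within every slide, with differences from -0.41 to -0.17 on the brighter and from -0.91 to -0.55 on the other. With the slide as a block the standard errors were 0.12 and 0.14, and the second probe passed p under 0.01 in limma (adjusted p = 0.191), still short of 2-fold. The signal of TUBB2B was clearly over background in 0 si-Control samples and in 1 si-C1GALT1-3 sample. Its log2 signals were 3.17, 3.20 and 3.22 in si-Control and 5.54, 3.19 and 3.21 in si-C1GALT1-3, and no fold is given.

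TUBB3 had log2 signals of 12.04, 12.11 and 13.31 in si-Control and of 11.93, 12.19 and 13.32 in si-C1GALT1-3. Arrays of the same slide lay close together, and both arrays of slide 3 stood above the others. The log2 fold change was -0.0039 ± 0.51 (standard error). Without the slide in the fit, its 95% confidence interval ran from -1.26 to 1.26 and so included a 2-fold change in either direction. Within slides 1, 2 and 3 the differences were -0.11, 0.089 and 0.0074. With the slide as a block the standard error was 0.11. Of the 6 neuronal markers, SNAP25, RBFOX3 and ELAVL4 were well above background on every array, NEFM on 5, SYP on 3 and NEFL on 1. ELAVL4 gave 0.95 ± 0.27 on the log2 scale (standard error; limma, adjusted p = 0.231) with groups that did not overlap, and it was not called. The log2 of the summed signal of the 6 markers ran from 10.34 to 11.12 in si-Control and from 10.67 to 11.00 in si-C1GALT1-3, with SNAP25 making up most of it. All samples were of the AGS line, and any relation of these marker signals to the TUBB3 value was not tested.

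TUBG1, the gamma-tubulin gene, had log2 signals of 11.32, 11.87 and 12.23 in si-Control and of 12.17, 12.09 and 12.30 in si-C1GALT1-3 on its brighter probe. The groups overlapped, and the log2 fold change was 0.38 ± 0.25 (standard error; limma, adjusted p = 0.573). The other probe gave 10.06, 10.78 and 11.41 against 11.27, 11.28 and 11.78, and its fitted log2 change was 0.70 ± 0.37 (standard error; limma, adjusted p = 0.480). Both probes were higher within every slide, most on slide 1, where the differences were 0.86 and 1.21. Without si-Control replicate 1 the values were 0.14 and 0.35. Its neighbour on chromosome 17, TUBG2, encodes the second gamma-tubulin and gave 0.41 ± 0.22 on the log2 scale (standard error; limma, adjusted p = 0.486), with overlapping groups.

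Differences between slides ran through most of the family. Centred on the mean of each gene, the median of the 8 genes was 0.84 on si-Control replicate 3, and between -0.39 and -0.02 on the other 5 arrays. Slide 1 gave the smallest difference for TUBA1A, TUBA1B and TUBA1C and the largest for TUBG1. Arrays of the same slide deviated together from their group means over all probes, with correlations of 0.198, 0.215 and 0.329. Arrays of different slides had -0.215 to 0.010. Deviations from a group mean cancel within the group, so positive correlations within slides make those between slides negative on balance. With the slide as a block limma again called 0 tubulin genes, and 4 of the 8 had an unadjusted p under 0.05.

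**Figure D3:**
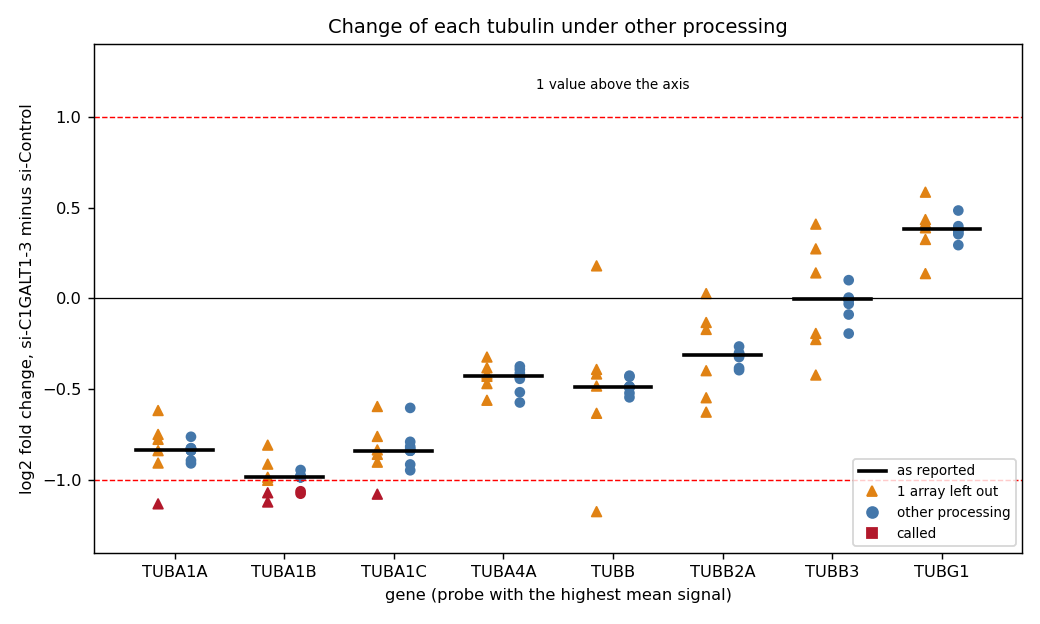
Log2 fold change of the brightest probe of each tubulin gene above background (x axis) under other processing (y axis). Black bars are the values reported, triangles leave out 1 array, circles change another step, red marks are called, and dashed lines mark 2-fold. TUBA1A, TUBA1B and TUBA1C stay below 0 throughout, TUBB3 lies on both sides of 0, and 1 value of TUBB, with the low-signal region kept, is at 3.86 above the axis.

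Of the 13 other tubulin genes, 11 had a probe and 0 were called. TUBA3C, an alpha-tubulin gene mainly known from testis, had groups that did not overlap and gave -0.55 ± 0.21 on the log2 scale (standard error; limma, adjusted p = 0.330). TUBA8 gave -0.70, the beta-tubulins TUBB4B, TUBB4A and TUBB8 gave -0.46, -0.32 and -0.24, and TUBAL3 gave -0.08, all with overlapping groups. TUBA3D gave 0.11, on the other side of TUBA3C, which is near-identical to it. TUBD1 and TUBE1, the delta- and epsilon-tubulins of centrioles, gave 0.59 and -0.45, TUBD1 with its spot missing on si-Control replicate 2. TUBB1, known from platelets, was not above background on any array, and TUBA3E and TUBA4B matched no probe. The median over the 10 above background was -0.28.

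Related genes were read from their brightest probe in 5 further lists. With the other tubulins these came to 122 genes, of which 113 had a probe and 3 were called, or 2.65%, close to the 2.64% of all probes. All 3 belong to the microtubule-binding and dynamics list, in which 37 of 38 genes had a probe, 3 were called lower and 0 higher, and the median was 0.089. PRC1, which bundles the antiparallel microtubules of the spindle midzone, had log2 signals of 10.63, 11.25 and 10.64 in si-Control and of 8.84, 9.26 and 7.79 in si-C1GALT1-3. It fell by 2.21 on the log2 scale (standard error 0.42; limma, adjusted p = 0.137), and the groups were more than 1 log2 unit apart. CKAP2, a spindle protein that stabilises microtubules, fell by 1.61 (standard error 0.42; limma, adjusted p = 0.207), from 8.82, 9.64 and 9.06 to 7.78, 8.15 and 6.77. This call was lost under 9 of 17 alternatives, among them no normalization, the series table, the low-signal region kept, the methods' t-test and 5 of the 6 left-out arrays, with values from -1.80 to -1.20 and no change of direction. TPX2, which starts microtubule growth around mitotic chromatin, fell by 1.07 (standard error 0.21; limma, adjusted p = 0.141), from 13.74, 14.08 and 14.07 to 13.14, 12.99 and 12.54.

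These 3 are spindle genes whose transcripts are known to peak late in the cell cycle. With the slide as a block TPX2 no longer passed p under 0.01. Without si-Control replicate 2 only PRC1 was called among the 113 genes, and without si-C1GALT1-3 replicate 3 only PRC1 was called in this list, TPX2 then passing p under 0.01 but not 2-fold (-0.90).

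The other lists had 0 called genes. In the nucleation list, which holds the gamma-tubulin ring and augmin subunits, 17 of 20 genes had a probe, 12 had lower values and the median was -0.32. Groups did not overlap for 9 of the 17, against 26.2% of the probes above background. Its lowest value was that of NEDD1, which brings the gamma-tubulin ring to the spindle, with -0.71 ± 0.23 (standard error; limma, adjusted p = 0.279), and its highest that of AKAP9, a Golgi and centrosome scaffold, with 0.62 ± 0.15 (adjusted p = 0.196 in limma). The NEDD1 and AKAP9 groups did not overlap. In the list of tubulin folding, with the cofactors, prefoldin and the chaperonin TRiC, 20 of 21 genes had a probe and the median over the 19 above background was 0.032. Values there ran from -0.43 for the TRiC subunit CCT6A to 0.40 for the cofactor TBCE.

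All 3 genes of tubulin mRNA autoregulation had higher values. TTC5, which recognises nascent tubulin chains, had log2 signals of 10.58 and 11.20 in si-Control replicates 1 and 3, its spot being missing on replicate 2, and of 11.35, 11.34 and 11.81 in si-C1GALT1-3. The groups did not overlap, and the log2 fold change was 0.61 ± 0.28 (standard error; limma, adjusted p = 0.434). SCAPER and CNOT11, which act after TTC5 in recruiting the deadenylase, gave 0.41 and 0.42, and neither had p under 0.05. In the list of tubulin-modifying enzymes, 25 of 27 genes had a probe, 17 had higher values, and the median over the 21 above background was 0.26. TTLL7, a polyglutamylase, had -0.99 ± 0.17 (standard error; limma, adjusted p = 0.142), just short of 2-fold and with no value on si-Control replicate 2, and the deacetylase SIRT2 had 0.82 ± 0.26 (adjusted p = 0.269 in limma).

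**Figure D4:**
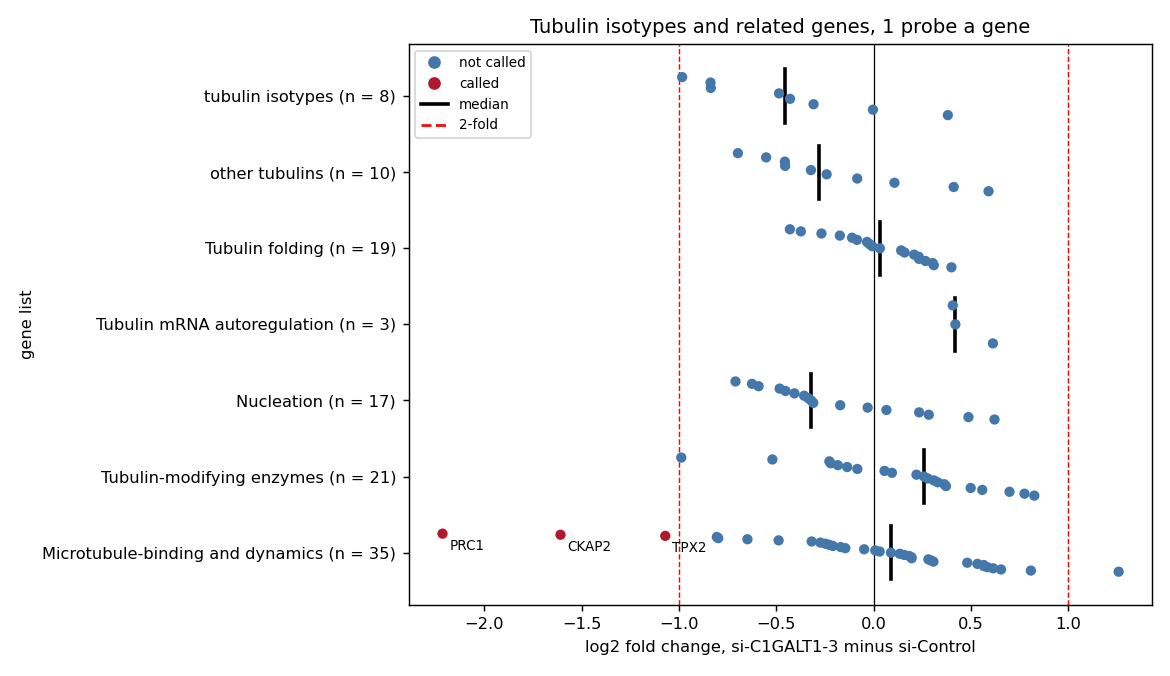
Log2 fold change of si-C1GALT1-3 minus si-Control (x axis) for the brightest probe of each gene above background, by list (y axis). Points are genes, black bars list medians, red points called genes and dashed lines 2-fold. The median of the tubulin isotypes is -0.46, and only PRC1, CKAP2 and TPX2 are called.

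Genes whose pattern over the arrays was most like that of TUBA1B, TUBB and TUBG1 were found among 13935 genes above background on all arrays, or 13936 for TUBB, by the root mean square difference of centred log2 values. For TUBA1B, over 6 arrays, they were SUV39H1, SENP2 and RFC3, with differences of 0.067, 0.076 and 0.082, where the median gene had 0.61. For TUBB, over the 5 arrays that measured it, they were TCP1, IPPK and SNRPB, with 0.080, 0.085 and 0.091 against a median of 0.57. TCP1 is a subunit of TRiC, and its own log2 fold change was -0.37 with overlapping groups. For TUBG1 they were PIAS1, DYNLL1 and EIF3K, with 0.046, 0.058 and 0.063 against a median of 0.43. The arrays behind these values are few and were normalized together, and the names describe likeness only.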

How the data were processed

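The authors deposited the output of Agilent Feature Extraction (version 10.5.1.1 per the labels) for 6 arrays, with intensity per spot in arbitrary units. The processed intensity is corrected for background within the array and is not normalized between arrays. Their series table repeats these spots as intensity less background. Following the methods of the study, log2 processed intensity of the gene spots was quantile normalized and tested with limma (version 3.58.1, R version 4.3.3), two-sided, with Benjamini-Hochberg adjustment over all probes. Outlier spots, and rows 113 to 288 of columns 59 to 115 on si-Control replicate 2, were set to missing. Where the only spot of a probe lay in that region, its fit rests on 5 arrays. Probes with further spots outside the region kept a value on that array. Spots of a probe were averaged, and a gene was read from its brightest probe. The test was checked on simulated data. Accessions were named through RefSeq tables of GRCh38.p14 (31104 of 58201 probes got a symbol), and the files name hg19, so no probe coordinates are given. All 10 genes had an upstream window.

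Alternatives were other scalings, background corrections and handling of spots, the series table, dim probes left out, the slide as a block, the methods' t-test, the mean over probes, and each array left out. The text names all members, C1GALT1 and other tubulins, and of each related list the called genes, or the largest rise and fall where under 2 were called. SCAPER and CNOT11 were chosen after their values were seen. The members and lists were chosen with earlier results of these data known. Arrays of the same number shared a slide, as the scanner files show, and their deviations from the group means correlated above 0.1 in every pair. The values reported are from the fit without the slide, and the fit with the slide as a block was an alternative.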

Additional observations from a re-analysis of the deposited data

How the results depend on the processing

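The number of probes called was 1538, and it moved by over 1.5 times only with normexp on the median spot signal, taken in place of the mean, which was not used here (915), and with the methods' t-test (896). Of the called probes 62.5% were higher, against 40.2% with the low-signal region kept, 72.6% with no normalization between arrays and 52.2% without si-Control replicate 1. Scaling to the 75th percentile moved the median of all probes by -0.11.

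The count of called tubulin genes, 0, became 1 with the 75th percentile and 1 with the region kept, and ran from 0 to 3 when single arrays were left out. It was 3 without si-Control replicate 1 and 1 without si-C1GALT1-3 replicate 1. The count over the related lists, 3, became 1 with no normalization and 1 with the methods' t-test, and ran from 1 to 5 when single arrays were left out. The call left was that of PRC1 with no normalization, and of TPX2 with the methods' t-test, where PRC1 lost its call. C1GALT1 passed p under 0.01 when dim probes were left out (-1.00), and ran from -1.20 to -0.75 when arrays were left out. With the slide as a replicate block 1604 probes and 0 tubulin genes were called, and of the related genes TPX2 lost its call.

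TUBA1A, TUBA1B, TUBA1C and TUBG1 kept their direction under all 17 alternatives. TUBA4A turned with the mean over its probes (0.048). TUBB turned with the region kept (3.86), where its own spot has the low signal, and without si-Control replicate 3 (0.18, in a range from -1.17 when single arrays were left out). TUBB2A turned without that array (0.026, in a range from -0.63). TUBB3, near 0, turned with no normalization (0.10), the series table (0.0042) and 3 left-out arrays (0.14, 0.27 and 0.41, in a range from -0.42). Probe A_23_P84448 of TUBA4A turned with the region kept (-0.082) and ran from -0.14 to 0.27 when arrays were left out, -0.046 among them. The cause of these changes was not tested except where named.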
